A study of Vitis riparia with 12 samples.

Results

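Shoot tips of the grapevine Vitis riparia (genotype PI588259) were compared after 21 days (SD21) and after 7 days (SD7) of a short photoperiod of 13 h. The groups were taken from the sample titles and held 3 libraries each, so 6 of the 12 libraries of the series entered the comparison. Vines kept at a long photoperiod of 15 h and sampled on the same days (LD21 and LD7, 3 libraries each) show what the same interval did without the shorter day. Each library came from 5 potted vines that were 6 years old, and a shoot tip spanned 4 nodes. All 4 groups had first grown for 30 days at 15 h. The material is whole shoot tips, so fewer cells of a type and less RNA per cell cannot be told apart, and the tissue could not be checked against marker genes because the gene identifiers carried no names.

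Vitis riparia is a wild North American grapevine that reads shortening days as the signal to stop growing. Its shoot tip does not form a closed terminal bud. Elongation slows and stops, the tip dies back, and the lateral buds below become dormant. The comparison of day 21 with day 7 asks how the transcripts of the tip shift as short days continue toward that arrest. Growth itself is not analysed here.

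Transcript abundance was given for 29970 gene identifiers as FPKM, which relate fragment numbers to the length of the transcript and to the size of the library. A gene was tested if at least 3 of the 12 libraries held 1 FPKM of it or more, which left 21848. The value column of SD21 replicate 3 was headed as replicate 2, but its values differed from those of replicate 2 and its group was not in doubt. The 10 most abundant genes held 17.4%, 16.2% and 21.3% of the FPKM in the SD21 libraries, against 9.39%, 9.57% and 9.94% in the SD7 libraries. Without the single most abundant SD21 locus, described below, these shares were 10.9% ± 0.785 in SD21 and 9.65% ± 0.288 in SD7 (SD, n = 3). The number of genes reaching 1 FPKM was 19424 to 19595 in SD21 libraries and 20144 to 20483 in SD7. No SD21 library overlapped an SD7 library in the share of the top 10 or in the number of genes at 1 FPKM, and the exact two-sided permutation p was 0.1 for each, the smallest that 3 against 3 allows.

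Between day 7 and day 21 of short days most of the tested genes were called changed, a minority of them by 2-fold or more. In SD21 against SD7, 13348 genes were called (61.1% of those tested), of which 5113 rose (23.4%) and 8235 fell (37.7%), at a Benjamini-Hochberg adjusted p under 0.05 in limma. Changes of at least 2-fold numbered 2566 higher (11.7%) and 4302 lower (19.7%), of at least 4-fold 747 (3.42%) and 1368 (6.26%), and of at least 16-fold 56 (0.256%) and 149 (0.682%). The libraries of SD21 and SD7 did not overlap in 64.7% of tested genes, with SD21 higher in 25.0% and lower in 39.7%. Correlations of log2(FPKM + 1) over tested genes were 0.760 to 0.829 between SD21 and SD7 libraries, 0.960 to 0.968 within SD21 and 0.965 to 0.972 within SD7. Without SD21 replicate 3 the counts were 4353 higher and 7522 lower.

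Which direction prevailed over all calls depended on the scaling. Over all tested genes, the log2 fold change had a median of -0.20 with FPKM as deposited, 0.021 after quantile normalization and -0.027 after median-ratio scaling. The share of calls that were higher in SD21 was 38.3% as deposited, 51.4% after quantile normalization (6741 higher, 6365 lower) and 48.9% after median-ratio scaling (6532 higher, 6821 lower). Of the 13348 calls, 11461 were called in the same direction after quantile normalization, 11932 after median-ratio scaling, and 0 in the opposite direction under either. Changes of at least 4-fold numbered 969 higher and 1058 lower after quantile normalization, 952 and 1151 after median-ratio scaling, and 1179 and 2305 with a pseudocount of 0.1 in place of 1. At that size lower calls outnumbered higher ones in each of these settings and as deposited (747 higher, 1368 lower). The margin depended on the scaling and on the pseudocount.

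The SD21 libraries were at a similar distance from the SD7 mean. Genes at least 4-fold above that mean numbered 780, 843 and 901 in SD21 replicates 1, 2 and 3, and genes at least 4-fold below it 1429, 1214 and 1810. Single SD7 libraries set against the other SD7 libraries gave 50 to 71 above and 32 to 93 below. Replicate 3 of SD21 had the most genes in both directions, and the median SD of log2(FPKM + 1) per gene was 0.22 within SD21 and 0.19 within SD7.

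The largest rises and falls were taken among called genes whose libraries did not overlap, whose higher group averaged 5 FPKM or more and whose locus was at least 300 bp long. These limits left 4122 genes that rose and 6315 that fell. The files do not pair the identifiers with gene names, and none matched the reference gene table, so 2 genes in each direction are given by identifier and other loci by position, in the coordinates of the files.

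VIT_00s0226g00170 (on sequence not placed on a chromosome, 14949259 to 14950130) stood at 181, 581 and 975 FPKM in the SD21 libraries, against 0.0913, 0 and 2.16 FPKM in the SD7 libraries. It was nearly silent at day 7 and high in every SD21 library, though these spread widely. Its log2 fold change was 8.28 ± 0.59 (SE, limma adjusted p = 1.0e-06). VIT_11s0016g05430 (chromosome 11, 4812623 to 4814041) stood at 658, 541 and 1037 FPKM in SD21 and at 2.67, 2.10 and 3.22 FPKM in SD7. The change was 7.63 ± 0.27 (SE, limma adjusted p = 5.8e-08), with all 3 SD21 libraries far above all 3 SD7 libraries. Under long days neither gene was called, with log2 fold changes of 0.07 ± 0.59 and 0.58 ± 0.27 (SE, limma adjusted p = 0.95 and 0.15).

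VIT_07s0130g00030 (chromosome 7, 20130292 to 20131700) was among the abundant transcripts at day 7 of short days and was almost lost at day 21. It had 3.72, 1.38 and 3.19 FPKM in SD21, against 1275, 849 and 1143 FPKM in SD7 (log2 fold change -8.22 ± 0.30, SE, limma adjusted p = 5.8e-08). VIT_03s0091g00390 (chromosome 3, 6715490 to 6716068) had 2.02, 4.17 and 0.281 FPKM in SD21, against 355, 252 and 362 FPKM in SD7 (-6.88 ± 0.43, SE, limma adjusted p = 4.3e-07). Both stood higher, not lower, in the LD21 libraries, at 2048 ± 343 FPKM in LD21 against 1109 ± 349 in LD7 for the first, and at 684 ± 205 against 427 ± 75.2 for the second (SD, n = 3), without being called (limma adjusted p = 0.054 and 0.31). The difference between the time changes at 13 h and at 15 h was called for all 4 genes. It was 8.21 ± 0.83, 7.05 ± 0.38, -9.14 ± 0.42 and -7.52 ± 0.60 on the log2 scale in the order above (SE, limma adjusted p = 1.9e-05, 1.4e-06, 7.4e-07 and 5.0e-06).

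**Figure D1:**
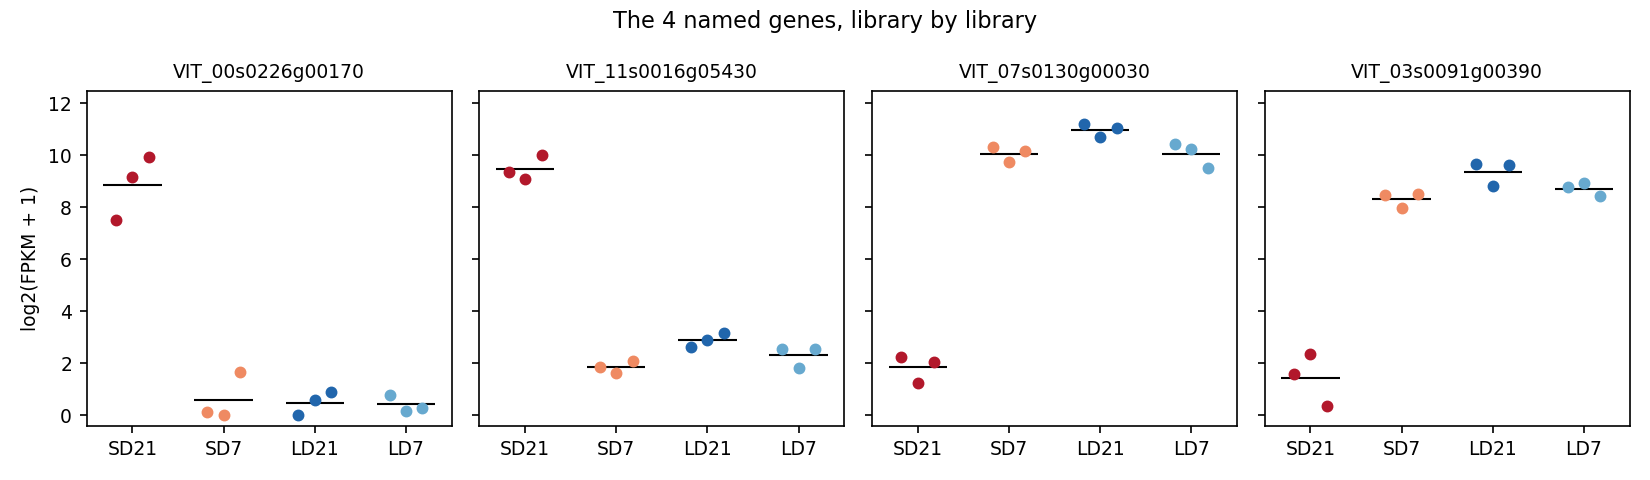
Level of the 4 named genes in every library, as log2(FPKM + 1) on the y axis and group on the x axis; each point is a library and each line the mean of 3 log2 values. The SD21 libraries lie apart from the SD7, LD21 and LD7 libraries in all 4 panels, above them for the first 2 genes and below them for the other 2.

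The most abundant transcript of SD21 came from a locus on chromosome 19 at 2789636 to 2790200. It had 93161, 67274 and 127676 FPKM in the SD21 libraries, against 1629, 1472 and 2785 FPKM in the SD7 libraries (log2 fold change 5.62 ± 0.39, SE, limma adjusted p = 7.1e-07). It ranked 1 in SD21 and 46 in SD7, and held 8.84% ± 2.80 of the FPKM in SD21 and 0.188% ± 0.0646 in SD7 (SD, n = 3). Under long days the same locus averaged 617 ± 359 FPKM in LD21 against 1526 ± 325 in LD7 (SD, n = 3), a log2 fold change of -1.44 ± 0.39 (SE, limma adjusted p = 0.031). The difference between the time changes at 13 h and 15 h was 7.06 ± 0.55 (SE, limma adjusted p = 4.2e-06). A locus that touches it, at 2785038 to 2789636, had 2845, 6958 and 10610 FPKM in SD21 and 131, 84.8 and 184 FPKM in SD7 (5.54 ± 0.51, SE, limma adjusted p = 5.6e-06). Reads at their shared boundary could count toward either, so these values are not independent.

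The other 4 of the 5 most abundant SD21 loci were already abundant at day 7. The locus on chromosome 17 at 3623302 to 3624351 ranked 1 in SD7 and 2 in SD21, with 33385, 31822 and 27069 FPKM in SD21 and 32369, 27453 and 28919 FPKM in SD7. These libraries overlapped and the change was not called (log2 fold change 0.05 ± 0.19, SE, limma adjusted p = 0.82). It was not called with median-ratio scaling either (0.27, adjusted p = 0.26). Quantile normalization, which forces the top values of all libraries to be equal, gave -1.19 (adjusted p = 4.5e-05), so the result depends on that choice. Leaving out single libraries moved the change between -0.01 and 0.14. The day 21 level of this locus under long days was lower, at 7337 ± 1872 FPKM in LD21 against 27621 ± 1324 in LD7 (SD, n = 3). The difference between the time changes was 2.0 ± 0.26 (SE, limma adjusted p = 8.1e-05). It was 2.32 with median-ratio scaling (adjusted p = 4.7e-05) and 0.32 after quantile normalization (adjusted p = 0.23).

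The locus on chromosome 6 at 6106695 to 6109243 had 9551, 10250 and 10284 FPKM in SD21 and 3783, 4097 and 4074 FPKM in SD7 (1.33 ± 0.26, SE, limma adjusted p = 0.00087). It varied little within either group. The locus on chromosome 19 at 18708815 to 18709975 had 8713, 15034 and 12892 FPKM in SD21 and 4976, 4307 and 4603 FPKM in SD7 (1.37 ± 0.22, SE, limma adjusted p = 0.00026). The locus on chromosome 12 at 19514998 to 19515658 had 8945, 14075 and 11700 FPKM in SD21 and 8258, 7189 and 8170 FPKM in SD7 (0.53 ± 0.18, SE, limma adjusted p = 0.024). Its call was lost after quantile normalization (adjusted p = 0.74), with only the SD21 and SD7 libraries in the fit (0.055) and without SD7 replicate 2 (0.076), SD21 replicate 2 (0.093) or SD21 replicate 3 (0.06). The last 3 loci were lower in LD21 than in LD7, with means of 1091 against 3115 FPKM on chromosome 6, 2169 against 3510 on chromosome 19 and 4345 against 8292 on chromosome 12. Their differences between the time changes were 2.95 ± 0.36, 2.09 ± 0.31 and 1.47 ± 0.26 (SE, limma adjusted p = 5.2e-05, 0.0002 and 0.00056), with 0.22 for the locus on chromosome 12 after quantile normalization (adjusted p = 0.37).

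Of the 5 most abundant SD7 loci, that on chromosome 8 at 10702631 to 10703381 fell furthest. It had 1133, 1143 and 610 FPKM in SD21, against 9078, 8864 and 9587 FPKM in SD7 (log2 fold change -3.31 ± 0.23, SE, limma adjusted p = 6.0e-07), and went to rank 120 in SD21, against rank 5 in SD7. Under long days it averaged 3738 ± 753 FPKM in LD21 against 7175 ± 335 in LD7 (SD, n = 3), and the change was larger under short days (difference -2.35 ± 0.33, SE, limma adjusted p = 0.00012). The locus on chromosome 10 at 5014594 to 5015426 had 5289, 6469 and 4066 FPKM in SD21 and 7323, 11071 and 13344 FPKM in SD7 (-0.99 ± 0.24, SE, limma adjusted p = 0.0041). Its change under long days was -1.64 ± 0.24 (SE, limma adjusted p = 0.0029), with means of 2420 FPKM in LD21 and 7472 in LD7, and the difference between the time changes was not called (0.66, adjusted p = 0.13) but was with median-ratio scaling (0.98, adjusted p = 0.049). That on chromosome 19 at 7399650 to 7400259 had 5402, 4317 and 7106 FPKM in SD21 and 6801, 10371 and 12065 FPKM in SD7, with overlapping libraries (-0.79 ± 0.26, SE, limma adjusted p = 0.022). Its call was lost with median-ratio scaling (adjusted p = 0.1), without SD7 replicate 2 (0.064) or 3 (0.086) and without SD21 replicate 1 (0.05 after rounding) or 2 (0.084). Under long days it had 10260 ± 2520 FPKM in LD21 against 10288 ± 1395 in LD7 (SD, n = 3), a change of -0.02 ± 0.26 (SE, limma adjusted p = 0.96). The difference between the time changes was not called as deposited (-0.76 ± 0.37, SE, limma adjusted p = 0.1). The locus on chromosome 18 at 19583510 to 19584489 had 9885, 7751 and 8617 FPKM in SD21 and 9601, 12817 and 10639 FPKM in SD7 and was not called (-0.33 ± 0.15, SE, limma adjusted p = 0.084), but was called without SD7 replicate 1 (-0.42, adjusted p = 0.049) and after quantile normalization (-0.86, adjusted p = 0.012). Under long days its change was -0.63 ± 0.15 (SE, limma adjusted p = 0.019), and the difference between the time changes, 0.30 as deposited (adjusted p = 0.26), was called with median-ratio scaling (0.63, adjusted p = 0.038).

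**Figure D2:**
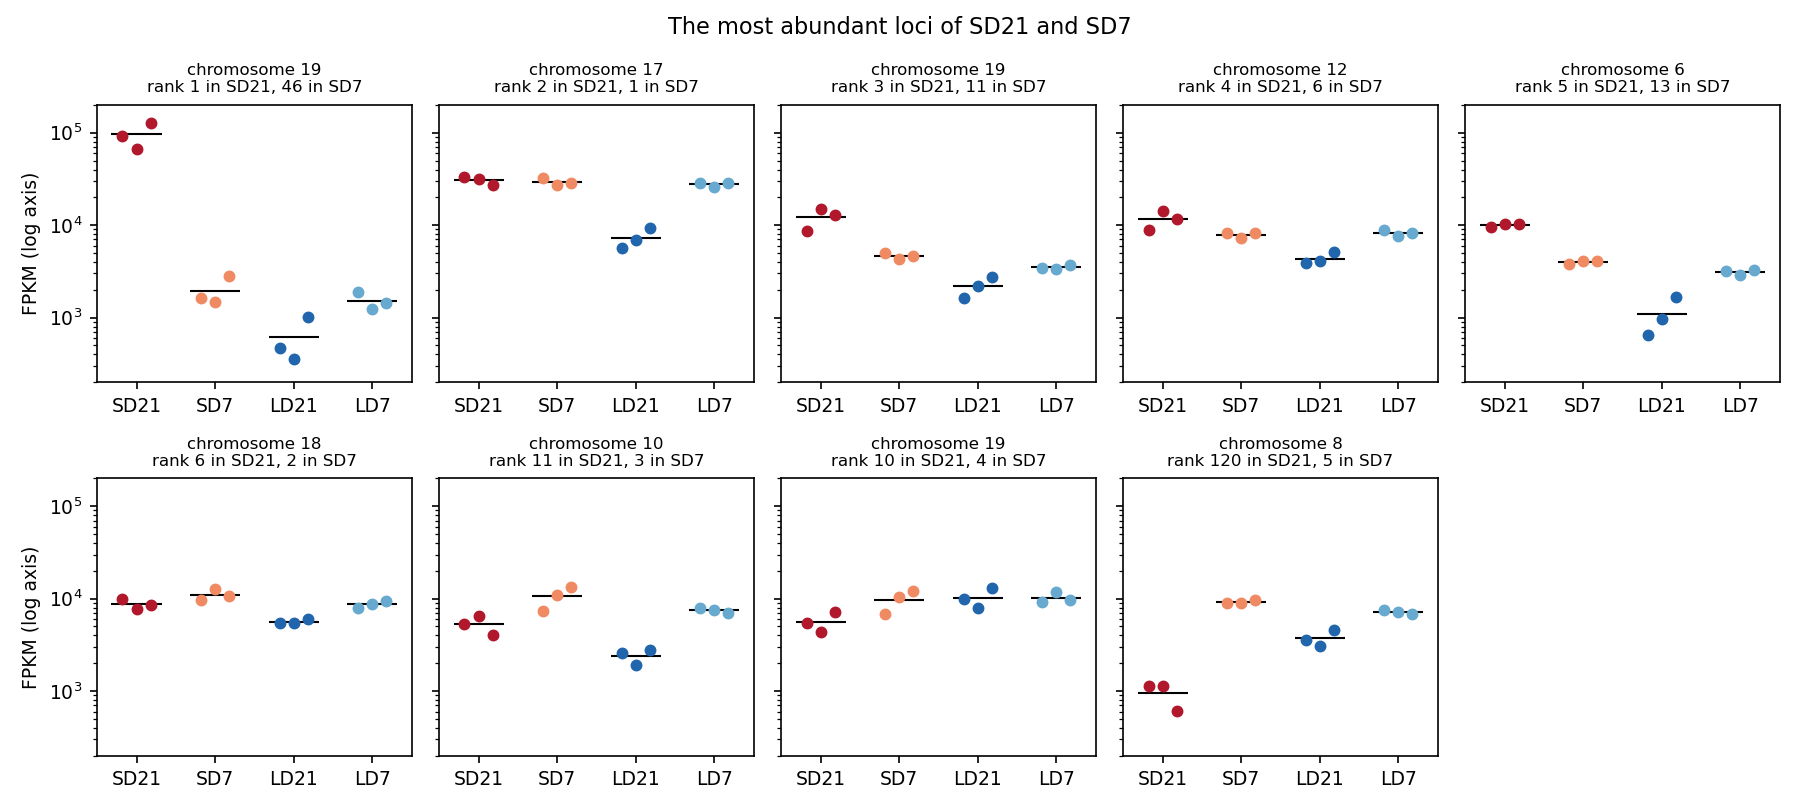
FPKM on a log axis of the 9 loci that were among the 5 most abundant in SD21 or SD7, with group on the x axis; each point is a library and each line the group mean. The SD21 libraries of the rank 1 locus lie between 67274 and 127676 FPKM, all above its SD7, LD21 and LD7 libraries, and those of the rank 120 locus lie between 610 and 1143 FPKM, all below.

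The share of genes called lower in SD21 increased with abundance. Genes were sorted by their mean in the LD7 libraries, which are in neither group compared but entered the filter and the estimate of the spread. Among the 1344 tested genes under 1 FPKM in LD7, 42.6% were higher and 9.3% lower in SD21 than in SD7. Among the 1731 genes at 100 FPKM or more, 17.1% were higher and 56.2% lower. The middle classes lay between, with 22.2% higher and 28.2% lower at 1 to 5 FPKM, 22.8% and 39.6% at 5 to 20 FPKM, and 22.8% and 45.0% at 20 to 100 FPKM. The share called lower increased from class to class under both other scalings too, but more genes were called higher than lower at 1 to 5 FPKM under both and at 5 to 20 FPKM after quantile normalization. Relative to the median of all tested genes, the median log2 fold change was 0.63 higher in the scarcest class and 0.47 lower in the most abundant, and with median-ratio scaling these were 0.56 and -0.43. The scarcest genes had to reach 1 FPKM in at least 3 libraries to be tested, which a gene high in SD21 could do through SD21 alone, so their share of higher calls is partly set by that filter. The scale of log2(FPKM + 1) understates falls from low values, which bears on the share called lower in the scarce classes. How far it does was not tested.

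Among the 100 genes most abundant in LD7, most of those called were lower in SD21. Together they held 30.9% ± 1.29 of the FPKM in SD21 and 26.3% ± 1.23 in SD7 (SD, n = 3), but the locus on chromosome 19 at 2789636 to 2790200 is among them and turned the direction. Without it, a check added after seeing the data, the other 99 held 24.2% ± 1.06 of the remaining FPKM in SD21 and 26.1% ± 1.20 in SD7 (SD, n = 3), with overlapping libraries. The 100 genes most abundant in LD21, which do not include that locus, held 18.2% ± 1.27 of all FPKM in SD21 and 22.6% ± 0.455 in SD7 (SD, n = 3). Of the FPKM remaining without the locus they held 20.0% ± 1.04 in SD21 and 22.6% ± 0.467 in SD7 (SD, n = 3). Of the 100 ranked in LD7, 15 were called higher and 51 lower, beside 23.4% and 37.7% of all tested genes, with 8 and 56 under quantile normalization, while median-ratio scaling gave 22 and 46.

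**Figure D3:**
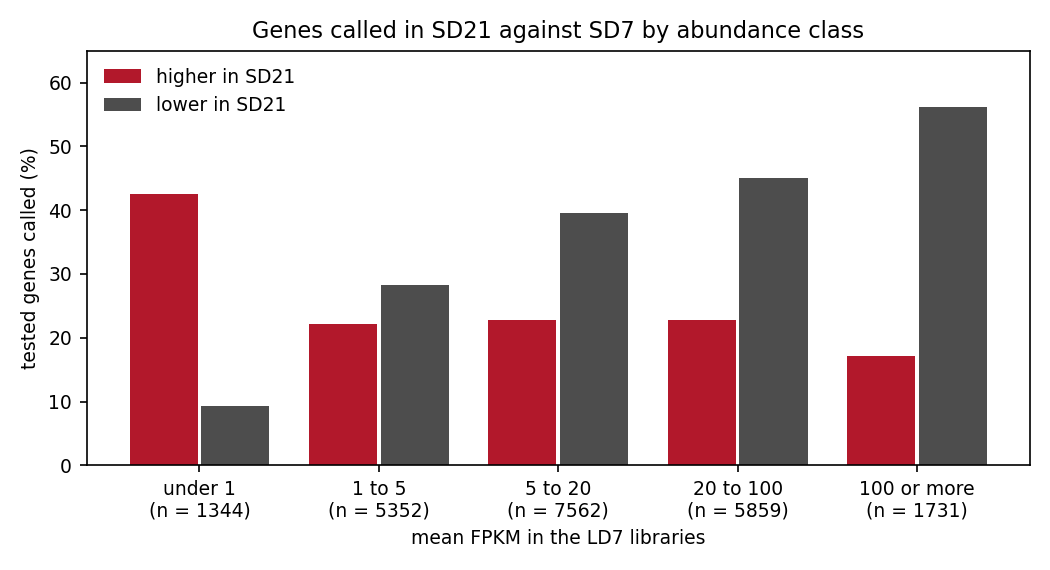
Percent of tested genes called higher (red) and lower (grey) in SD21 against SD7 on the y axis, by mean FPKM in the LD7 libraries on the x axis, with the number of tested genes under each class. The share called lower was 9.3% in the scarcest class and 56.2% in the most abundant one.

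Large changes were least frequent at the longest loci. Of 423 tested loci under 300 bp, 3.55% were called at least 4-fold higher and 11.1% at least 4-fold lower. Of 3075 tested loci of 300 to 1000 bp, 5.85% were called at least 4-fold higher and 8.85% at least 4-fold lower. Of 3346 loci of 10000 bp or more, 0.956% and 1.76% were. Locus length here includes introns, and the median log2 fold change of the 300 to 1000 bp class and of the longest class differed from that of all tested genes by 0.006 and 0.008. By chromosome, chromosome 16 had the highest share of genes called higher, with 29.1% higher and 32.7% lower of 828 tested genes as deposited, and 36.2% and 26.0% after quantile normalization. Chromosome 3 had the highest share called at least 4-fold lower, with 10.0% of 876 tested genes beside 6.26% of all. Both chromosomes carry a long run of changed neighbours described below.

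The change over these 2 weeks at 13 h differed from the change over the same weeks at 15 h for most called genes. The difference of the time changes, SD21 minus SD7 less LD21 minus LD7, was called for 12045 genes (55.1% of those tested). It was positive for 4292 of them and negative for 7753 (19.6% and 35.5% of those tested), with 5610 and 5670 under quantile normalization and 5730 and 5845 under median-ratio scaling. Of the 5113 genes that rose in SD21 against SD7, 3715 (72.7%) had a called difference in the same direction, 3 in the opposite one, and 1395 (27.3%) had none. Of the 8235 that fell, 6780 (82.3%) had a called difference in the same direction, 13 in the opposite one, and 1442 (17.5%) had none. Both tests share the SD21 and SD7 libraries, so some of this correspondence is built in. Over genes, which do not count as independent replicates, the time changes at 13 h and 15 h had a weak negative correlation (r = -0.128, Spearman -0.177, n = 21848 genes). These changes come from separate libraries but from the same fit.

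Genes with the widest changes at 13 h were close to level at 15 h. For the 56 genes at least 16-fold higher in SD21, the median of the gene means was 77.7 FPKM in SD21 and 1.75 in SD7, against 1.94 in LD21 and 2.89 in LD7. For the 149 genes at least 16-fold lower, it was 2.62 FPKM in SD21 and 82.0 in SD7, against 104 in LD21 and 85.9 in LD7. The difference of the time changes was called in the same direction for 55 of the 56 and 142 of the 149. The 4-fold to 16-fold classes behaved alike, with 669 of 691 genes that rose and 1160 of 1219 that fell. Over all tested genes the difference was called higher in 19.6% and lower in 35.5%. These classes were chosen on SD21 and SD7 values, which enter the difference, so the counts are largely built in.

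**Figure D4:**
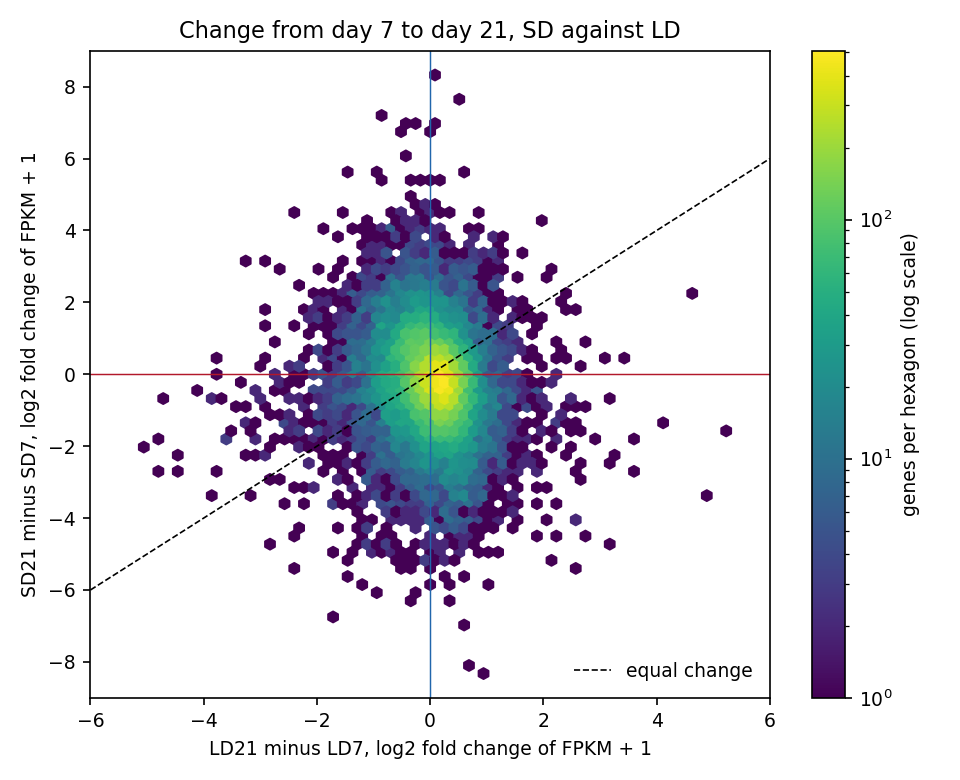
Log2 fold change of FPKM + 1 from day 7 to day 21 at 13 h (SD21 minus SD7, y axis) and at 15 h (LD21 minus LD7, x axis) for 21848 tested genes, coloured by the number of genes per hexagon; the dashed line marks an equal change. The cloud is taller than it is wide: 90% of the genes lie between -2.23 and 1.72 on the y axis and between -0.876 and 0.775 on the x axis.

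SD21 was the group that lay outside all other libraries in the most genes, followed by LD21, while SD7 did so in few. All 3 SD21 libraries lay above the other 9 libraries in 4065 tested genes (18.6%) and below them in 7217 (33.0%). With median-ratio scaling, a check added after seeing the data, these were 5501 and 5735. All 3 SD7 libraries lay below the other 9 in 588 genes (2.69%) and above them in 399 (1.83%), or in 552 and 440 with median-ratio scaling. LD21 lay above the other 9 in 3455 genes (15.8%) and below them in 1429 (6.54%), and LD7 in 269 (1.23%) and 262 (1.2%), as deposited. With median-ratio scaling LD21 lay above them in 2132 (9.76%) and below them in 2083 (9.53%), so its excess above depended on the scaling. As deposited, LD21 lay above all others in 27.6% of the genes that fell in SD21 against SD7 and below all others in 15.8% of those that rose. A gene can be outside at both ends through different groups. For the genes with SD7 outside, it is by definition that SD7 lay apart from the long-day libraries and that SD21 lay toward or past them. Of the 747 genes at least 4-fold higher in SD21 than in SD7, 670 had SD21 above all other libraries and 139 had SD7 below all others. Of the 1368 at least 4-fold lower, 1297 had SD21 below all others and 82 had SD7 above all others. Both lists were chosen on SD21 and SD7 values, so these counts are partly built in.

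The widest changes among genes with SD7 outside all other libraries are given below, a choice made with their values in view. A locus on chromosome 10 at 856029 to 856801 had 6.13, 32.8 and 5.97 FPKM in SD21, against 1060, 558 and 1094 FPKM in SD7, with 129 to 295 FPKM in LD21 and 316 to 464 in LD7. It stood above the long-day level at day 7 and below it at day 21 (SD21 minus SD7 log2 fold change -6.19 ± 0.56, SE, limma adjusted p = 5.3e-06). A locus on chromosome 3 at 3890514 to 3891598 had 8.58, 0 and 0 FPKM in SD21, against 85.8, 49.96 and 72.7 FPKM in SD7, with 10.2 to 26.8 in LD21 and 21.1 to 32.8 in LD7 (-5.02 ± 0.75, SE, limma adjusted p = 0.00022). In the other direction, a locus on chromosome 15 at 16686273 to 16691769 had 63.8, 52.6 and 98.9 FPKM in SD21 and 1.54, 2.50 and 2.64 FPKM in SD7, with 4.90 to 10.7 in LD21 and 5.21 to 6.32 in LD7. It lay below the long-day level at day 7 and above it at day 21 (4.46 ± 0.27, SE, limma adjusted p = 2.9e-07). A locus on chromosome 2 at 18248755 to 18251419 had 38.1, 24.0 and 29.8 FPKM in SD21 and 0.515, 0.390 and 0.405 FPKM in SD7 (4.44 ± 0.24, SE, limma adjusted p = 1.9e-07). It had 0.573 to 1.42 FPKM in LD21 and 0.593 to 1.82 in LD7. Its SD7 libraries thus lay below the long-day ones only by a narrow margin at low FPKM, while SD21 stood far above all.

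Changed genes also lay side by side in the genome. Runs were taken as consecutive tested genes on the 19 numbered chromosomes that were all called in the same direction at least 2-fold, beside 11.7% of all tested genes higher and 19.7% lower at that size, and the 3 longest of each direction are described. Neighbouring copies of a gene can share reads, so values of single genes in a run are uncertain, and the summed FPKM is given with them. Members were chosen on their SD21 and SD7 values, which nearly fixes that these groups do not overlap and bears on the difference of the time changes, so counts of the difference are read only beside the 19.6% of all tested genes called higher and the 35.5% called lower in it. The choice also bears on how often SD21 or SD7 lay outside the other 9 libraries. Over all tested genes SD21 lay above them in 18.6% and below them in 33.0%, and SD7 in 1.83% and 2.69%.

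The longest run of rising genes lay on chromosome 16 at 6676141 to 7045848, with 13 tested genes of 15 listed loci. Its summed FPKM was 1437, 1612 and 1384 in the SD21 libraries and 140, 87.3 and 349 in the SD7 libraries. Log2 fold changes ran from 2.13 to 4.02 with a median of 3.03. The run stood low in SD7, as the sums were 716, 1422 and 953 in LD21 and 577, 543 and 665 in LD7, and the SD7 libraries lay outside the other 9 in 12 of the 13 genes. The first 9 genes, to 6904333, reached in SD21 a level within the LD21 range (1075 to 1296 FPKM summed in SD21, 650 to 1342 in LD21). The last 4, from 6973918, did not, with 309 to 324 FPKM summed in SD21, 15.8 to 35.3 in SD7, 59.4 to 79.9 in LD21 and 64.7 to 84.1 in LD7. This split was made after the values were seen. The first of these 4, at 6973918 to 6975043, had 141, 160 and 147 FPKM in SD21 and 6.0, 6.82 and 15.7 FPKM in SD7 (3.95 ± 0.29, SE, limma adjusted p = 9.9e-07). Within groups the libraries ranked much alike across the 13 genes, with SD7 replicate 3 the highest SD7 library in 13 of 13 and LD21 replicate 2 the highest LD21 library in 12 of 13. The difference of the time changes was called higher for 12 of them.

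The next run of rising genes lay on chromosome 4 at 7244107 to 7521694, with 11 tested genes of 13 listed loci, and it marked SD21. Its summed FPKM was 509, 527 and 353 in SD21, 80.7, 110 and 101 in SD7, 53.6, 84.3 and 95.7 in LD21 and 151, 152 and 146 in LD7. The SD21 libraries lay outside the other 9 in 11 of 11 genes, with log2 fold changes from 1.30 to 2.68. The gene with the widest change, at 7481599 to 7482615, had 58.5, 81.3 and 48.6 FPKM in SD21 and 7.17, 11.3 and 8.16 FPKM in SD7 (2.68 ± 0.29, SE, limma adjusted p = 1.5e-05). Over the same interval at 15 h the median log2 fold change of the run was -1.02, and the difference of the time changes was called higher for 11 of 11.

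The last run of rising genes, 8 tested genes of 11 listed loci on chromosome 1 at 19997291 to 20057597, was low and uneven. Its summed FPKM was 9.69, 46.5 and 62.3 in SD21, 1.19, 2.2 and 2.81 in SD7, 20.6, 32.7 and 25.5 in LD21 and 16.6, 7.91 and 4.49 in LD7. SD21 replicate 1 was the lowest SD21 library in 8 of 8 genes. The run rose at both photoperiods in its values, with a median log2 fold change of 1.71 at 13 h and 0.86 at 15 h, and the difference was called for 1 of 8. Only 5 of the 8 were called without SD21 replicate 3, and 4 with only the SD21 and SD7 libraries in the fit.

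Among falling genes the longest run held 21 tested genes of 22 listed loci on chromosome 3 at 858885 to 927965. Its summed FPKM was 99.9, 126 and 52.0 in SD21 and 481, 729 and 409 in SD7, with 210, 221 and 291 in LD21 and 294, 296 and 419 in LD7. Single SD21 libraries spread over more than a doubling, yet SD21 lay below all other libraries in 16 of the 21 genes, and SD7 lay above all others in 8. Log2 fold changes ran from -1.13 to -3.25. The widest fall was at 900917 to 901205, with 4.90, 9.88 and 2.49 FPKM in SD21 and 56.8, 75.1 and 42.8 FPKM in SD7 (-3.25 ± 0.36, SE, limma adjusted p = 1.9e-05). The difference of the time changes was called lower for 17 of the 21. Exceptions include the locus at 862994 to 863398, which fell alike at 13 h and 15 h (-1.35 ± 0.28 and -1.37 ± 0.28, SE, limma adjusted p = 0.0015 and 0.011). The loci are very short, 11 of the 21 under 300 bp, and short loci carry uncertain FPKM with reads of 43 bp.

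The run with the deepest fall lay on chromosome 4 at 1213603 to 1275745, with 12 tested genes of 16 listed loci. Its summed FPKM was 34.8, 21.8 and 13.8 in SD21, against 1517, 361 and 2429 in SD7. The LD21 libraries varied widely too, with 815, 41.4 and 39.5, and the LD7 libraries less, with 247, 397 and 415. The SD7 libraries therefore overlapped the long-day ones, while every SD21 sum was below every other library. In single genes the SD21 libraries lay below the other 9 in 5 of 12, beside 33.0% of all tested genes. The gene at 1244736 to 1246530 had 1.85, 0.889 and 0.265 FPKM in SD21 and 188, 49.2 and 286 FPKM in SD7 (-6.20 ± 1.10, SE, limma adjusted p = 0.0008), with 101, 4.32 and 3.62 FPKM in LD21. SD7 replicate 2 was the lowest SD7 library in 11 of the 12 genes and LD21 replicate 1 the highest LD21 library in 11. The difference of the time changes was called lower for 6 of 12, beside 35.5% of all tested genes.

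The last run of falling genes held 8 tested genes of 9 listed loci on chromosome 14 at 26537038 to 26699986. Its summed FPKM was 16.2, 34.3 and 8.99 in SD21, against 219, 261 and 138 in SD7, 254, 159 and 119 in LD21 and 197, 273 and 231 in LD7. The SD7, LD21 and LD7 sums overlapped, and the SD21 libraries lay below the other 9 in 8 of 8 genes. The gene at 26604839 to 26607872 had 4.27, 10.2 and 2.25 FPKM in SD21 and 67.1, 79.3 and 37.4 FPKM in SD7 (-3.37 ± 0.44, SE, limma adjusted p = 6.7e-05). The difference of the time changes was called lower for 8 of 8.

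**Figure D5:**
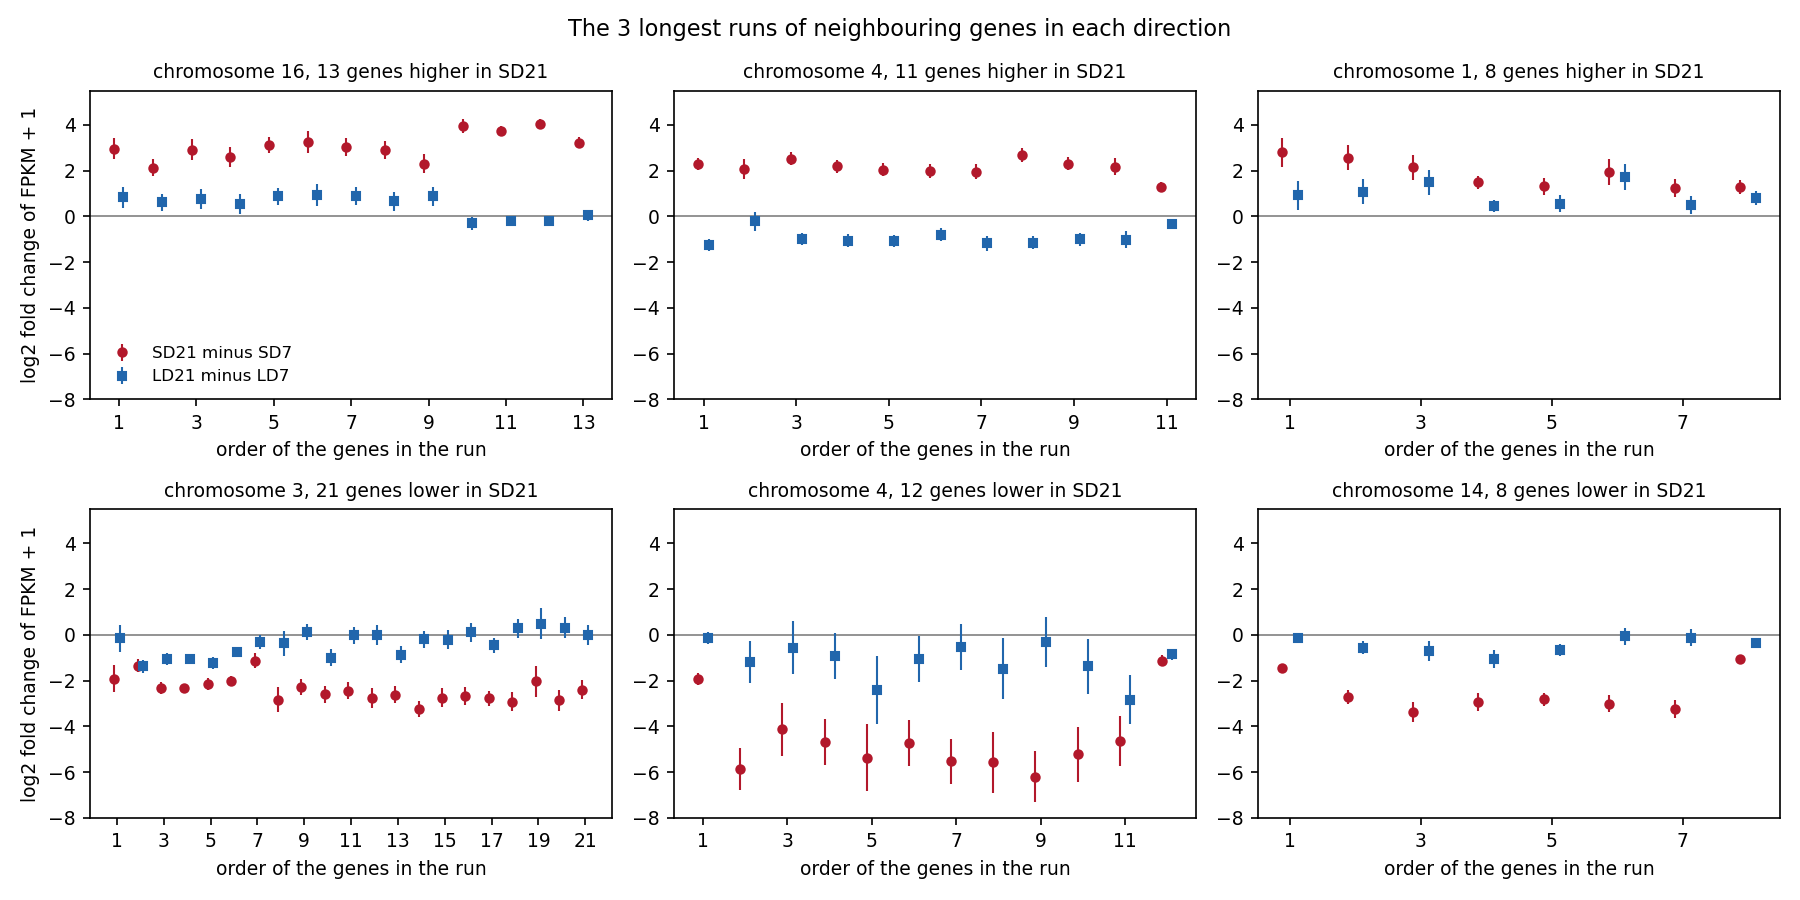
Log2 fold change of FPKM + 1 (y axis) of each gene in the 3 longest runs of rising (top row) and falling (bottom row) neighbours, by order in the run (x axis), for SD21 minus SD7 (red circles) and LD21 minus LD7 (blue squares), with SE bars. The red and blue points separate along the whole run on chromosome 4 in the top row and on chromosome 14, and approach each other on chromosome 1.

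A small set of genes was listed at 0 FPKM in every library of one of the groups and at 5 FPKM or more in every library of the other. There were 5 such genes present in SD21 and listed at 0 in SD7, and 12 present in SD7 and listed at 0 in SD21. Of the 5, that on chromosome 3 at 3186259 to 3187245 was at 5.07, 34.5 and 18.1 FPKM in SD21 and listed at 0 in all 9 other libraries. Of the 12, the most abundant lay on chromosome 9, was 143 bp long (16727010 to 16727152) and was listed at 0 in SD21 and at 224, 339 and 264 FPKM in SD7. A longer one, on chromosome 14 at 23022232 to 23026183, was listed at 0 in SD21 and at 33.8, 21.3 and 70.4 FPKM in SD7, with 20.2 to 32.2 FPKM in LD21 and 35.7 to 40.4 in LD7. Of the 12, 6 were under 300 bp, and none was listed at 0 in all LD21 libraries. Whether a listed 0 is a failed estimate was not tested, and every value carried an OK status. As 13 genes that exceeded 20 FPKM in 10 or more libraries were listed at 0 elsewhere, no fold is given.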

How the data were processed

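RNA sequencing of whole shoot tips gave 12 libraries, 3 each of SD21, SD7, LD21 and LD7, each from 5 vines. The deposited values are FPKM per gene and library, per the file headers, and depth is unknown because FPKM carry no read totals. Per the submitters' processing notes, the authors used Cufflinks 2.2.1, TopHat2 2.0.13, Bowtie2 2.2.4, cutadapt 1.8.1 and FastQC 0.11.3. Their parameters, genome build, annotation, strand use and treatment of reads shared by similar genes were not given in the sources used here. The RefSeq table of assembly EGFV_Vit.rip_1.0 held 0 of the 29970 identifiers, so planned lists by product name were not run and no sequences are shown.

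Libraries were joined by identifier. Tests were run on log2(FPKM + 1) of genes reaching 1 FPKM in 3 libraries or more, a scale that understates the change of low genes, with a group means model over all 12 libraries in limma 3.58.1 (R 4.3.3, eBayes with trend and robust). The spread was estimated over all 4 groups together, since groups of 3 are small. Calls had a Benjamini-Hochberg adjusted p under 0.05. The moderated tests set each change against the spread between replicate libraries. Named genes were the 2 largest rises and 2 largest falls within the limits given. Other loci were the 5 most abundant of each group and the members of the 3 longest runs. The members and lists were chosen with earlier results of these data known. Library measures were compared with exact permutation tests (Python 3.11.15, scipy 1.17.1; plots with matplotlib 3.10.9). The model was also run on simulated libraries in which only a small set of genes was changed. That run does not cover a change as broad as the one here, nor its dependence on the scaling. Alternatives were quantile normalization, median-ratio scaling, a pseudocount of 0.1, no filter on low values, loci under 300 bp left out, limma without trend and robust, only SD21 and SD7, a replicate block, each library left out and a 2-fold limit.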

Additional observations from a re-analysis of the deposited data

Results flagged for a closer look

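The results below stood out because the change from day 7 to day 21 differed between the photoperiods, tested as SD21 minus SD7 less LD21 minus LD7 in the same limma fit. That difference was called for 12045 of 21848 genes. It was 8.21 for VIT_00s0226g00170, 7.05 for VIT_11s0016g05430, -9.14 for VIT_07s0130g00030 and -7.52 for VIT_03s0091g00390, on the log2 scale. Among the most abundant loci it was 7.06 on chromosome 19 at 2789636 to 2790200, 2.0 on chromosome 17 at 3623302 to 3624351, 2.09 on chromosome 19 at 18708815 to 18709975, 1.47 on chromosome 12 at 19514998 to 19515658, 2.95 on chromosome 6 at 6106695 to 6109243 and -2.35 on chromosome 8 at 10702631 to 10703381. Groups of 3 libraries are too small for a test of single outlying libraries.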

How the results depend on the processing

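The 4 named genes kept their direction and call in SD21 against SD7 and in the difference of the time changes under every alternative run. With each library left out, calls in SD21 against SD7 ranged from 4353 to 5160 higher and from 7251 to 8284 lower, and those in the difference of the time changes from 3827 to 4214 higher and from 6922 to 7677 lower. A 2-fold limit gave 2566 higher and 4302 lower. The median log2 fold change of -0.20 became 0.021 after quantile normalization, -0.027 after median-ratio scaling and -0.08 without the filter, and ranged from -0.246 to -0.166 with each library left out. With a pseudocount of 0.1, calls of at least 4-fold numbered 1179 higher and 2305 lower. Leaving out loci under 300 bp kept 10 of the 21 genes of the run on chromosome 3, since the other 11 are shorter. Reversed values were those of the locus on chromosome 17 in SD21 against SD7, -1.19 after quantile normalization and, with each library left out, -0.01 (without SD21 replicate 1) to 0.14. In the difference of the time changes they were those of the loci on chromosome 18 at 19583510, -0.88, and chromosome 10 at 5014594, -0.2, both after quantile normalization. Neither difference was called as deposited (0.30 and 0.66) or after quantile normalization, but both were with median-ratio scaling (0.63 and 0.98, adjusted p = 0.038 and 0.049), and the cause was not tested. The replicate block gave 5025 higher and 8152 lower in SD21 against SD7 and 4205 and 7593 in the difference, and changed no call of a named gene, an abundant locus or a run. The replicate numbers did not pair the libraries, since deviations of same-numbered SD21 and SD7 libraries correlated at 0.007, -0.060 and 0.022.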
